A study of Mus musculus with 12 samples.

Results

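The calcium switch of the cardiac thin filament was followed in the RNA of single hearts through 9 genes, chosen by name: the troponin I genes Tnni3 and Tnni1, the troponin T genes Tnnt2 and Tnnt1, the troponin C gene Tnnc1, and the tropomyosin genes Tpm1, Tpm2, Tpm3 and Tpm4. Each of the 9 names matched a single row among the 53700 genes of the count table, and all 9 passed the filter on low counts, which left 17847 genes for testing. The comparison asked how the levels of these genes, and the balance between adult and fetal isoforms, differed between hearts whose cardiomyocytes had lost Cyb5r3 and control hearts.

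Troponin and tropomyosin lie along the actin filament and set when myosin may pull on it. Calcium binds troponin C, troponin I then releases its hold on actin, and troponin T, which anchors the complex to tropomyosin, passes the movement on. Most of these proteins come in several isoforms from separate genes. The fetal heart uses the slow skeletal troponin I of Tnni1, which is replaced by the cardiac form of Tnni3 around birth. Tnnt2 encodes cardiac troponin T and Tnnt1 the slow skeletal form, whereas Tnnc1 encodes the troponin C of both heart and slow muscle. Tpm1 encodes the main tropomyosin of the mouse heart, Tpm2 the beta form, and Tpm3 and Tpm4 largely forms that slow muscle or nonmuscle cells use.

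The 12 hearts came from male mice that all carried the Myh6-CreERT2 transgene and had all received tamoxifen. The groups were set apart by the Cyb5r3 alleles alone: the ac-WT mice had the genotype CYB5R3wt/wt and the ac-CYB5R3–KO mice the genotype CYB5R3fl/fl, with 6 mice in each. Mice aged 10 to 13 weeks were dosed with tamoxifen at 33 mg/kg per day on 5 days, and the hearts were taken 5 days later. The Myh6 promoter restricts Cre to cardiomyocytes, so other cells of the heart kept the gene, and because the controls carried Cre too, effects of Cre and tamoxifen were shared. The libraries were made from total RNA of 30 to 50 mg of frozen heart tissue.

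The libraries held between 43393183 and 53754284 counts each. Cyb5r3, the targeted gene, averaged 126 ± 38.4 CPM (reads of a gene per 1000000 reads of the library, after TMM scaling) in ac-WT hearts and 53.7 ± 9.07 CPM in ac-CYB5R3–KO hearts (SD, n = 6 each), with no overlap. It fell by 1.22 (SE 0.19) on the log2 scale, with an adjusted p of 0.045 in edgeR's quasi-likelihood test. It was lower in all 22 other settings tried, but with an adjusted p under 0.05 in only 11 of them. Scaled to total counts instead, the groups overlapped, since ac-WT mouse 2 stood at 46.6 CPM and ac-CYB5R3–KO hearts reached 75.4 CPM. Mice 2 and 3 of the ac-WT group stood apart from the rest. Their TMM factors, which correct for RNA composition, were 0.570 and 0.723, whereas the other 10 libraries lay between 0.988 and 1.22. Mitochondrially encoded transcripts took 35.3% and 34.8% of their counts, against 24.0% to 30.1% elsewhere. Values without these libraries are therefore given beside the results. The log2 fold change of Cyb5r3 was −1.41 without them. The atrial genes Sln and Bmp10 had 6 and 10 counts in all 12 hearts together, and atrial myosin light chain (Myl7) averaged 1.25 CPM in ac-WT hearts, where the ventricular light chain (Myl2) averaged 6102 CPM. The other genes of the atrial list stood higher there, Nppa at 707, Myl4 at 6.92 CPM and Fam189a2 between 40.4 and 70.5 CPM. The study describes the tissue as whole heart, and the share of atrium in it was not tested.

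Troponin I and troponin T genes lie side by side in the genome as pairs. The pairs are shown because the genes of 1 pair had the lowest log2 fold changes (ac-CYB5R3–KO minus ac-WT) among the 9. In the NCBIM37 build, Tnni3 spans chr7:4469907-4475831 and Tnnt1 spans chr7:4456172-4467984, both on the minus strand, with 1.92 kb and no annotated gene between them. Tnni1 spans chr1:137679642-137707566 and Tnnt2 spans chr1:137737452-137748837, both on the plus strand and 29.9 kb apart, with Lad1 between them. In each pair the troponin I gene is the upstream partner. Tnnc1 spans chr14:31983021-32024915 (plus strand), Tpm1 chr9:66870397-66897213 (minus), Tpm2 chr4:43527583-43536637 (minus), Tpm3 chr3:89876571-89904824 (plus) and Tpm4 chr8:74658874-74677041 (plus). The 250 bases before the annotated start of each of these 4 genes are printed below from RefSeq (GRCm38.p6), 5′ to 3′ on the gene's strand, with capitals marking the matches to the motifs searched.
Tnni3 (chr7:4522529-4522778, minus strand): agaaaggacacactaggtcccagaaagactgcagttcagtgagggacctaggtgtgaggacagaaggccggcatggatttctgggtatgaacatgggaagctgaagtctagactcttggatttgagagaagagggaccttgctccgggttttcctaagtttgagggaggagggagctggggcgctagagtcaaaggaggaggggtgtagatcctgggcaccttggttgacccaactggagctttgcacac
Tnnt1 (chr7:4515976-4516225, minus strand): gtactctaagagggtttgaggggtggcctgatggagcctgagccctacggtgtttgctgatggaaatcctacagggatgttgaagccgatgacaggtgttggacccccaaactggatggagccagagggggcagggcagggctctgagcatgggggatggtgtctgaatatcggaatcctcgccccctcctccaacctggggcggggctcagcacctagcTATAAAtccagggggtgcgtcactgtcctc
Tnni1 (chr1:135799171-135799420, plus strand, the first of 2 entries): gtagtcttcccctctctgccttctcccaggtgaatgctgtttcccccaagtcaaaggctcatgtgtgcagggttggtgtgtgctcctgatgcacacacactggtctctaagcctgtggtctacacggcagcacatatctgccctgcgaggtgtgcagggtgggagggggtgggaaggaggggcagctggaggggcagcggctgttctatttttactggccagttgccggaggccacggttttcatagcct
Tnnt2 (chr1:135836084-135836333, plus strand, the first of 2 entries): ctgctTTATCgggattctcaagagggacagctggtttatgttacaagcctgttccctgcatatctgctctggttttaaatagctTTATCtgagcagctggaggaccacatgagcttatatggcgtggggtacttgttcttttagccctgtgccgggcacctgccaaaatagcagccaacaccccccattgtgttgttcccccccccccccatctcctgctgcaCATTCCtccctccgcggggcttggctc

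The motifs searched, on both strands, were the GATA core (GATAA), the MCAT element that TEAD factors bind (CATTCC), the TATA box (TATAAA), and the MEF2 site and CArG box of muscle promoters. Of 32851 windows of this length in the RefSeq table, 22.6% held GATAA, 12.6% CATTCC, 12.4% TATAAA, 1.69% the MEF2 site and 1.47% the CArG box. The Tnni3 window held none of them, and neither Tnni1 window held any. The Tnnt1 window held TATAAA, 30 to 25 bases before the start. The first Tnnt2 window held TTATC, the reverse complement of GATAA, at 2 places and CATTCC once, 27 to 22 bases before the start, and its second window held no match. Among the other members, the Tnnc1 and Tpm1 windows each held a single match to CATTCC on the opposite strand, each Tpm3 window held GATAA once, and the Tpm2 and Tpm4 windows held none. These matches describe the letters of the windows only.

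Among the 9 genes, Tnni3 and Tnnt1 were lower in ac-CYB5R3–KO hearts, by 2.01-fold and 2.84-fold, and the other 7 differed by less than the spread between mice. No member passed an adjusted p of 0.05 in edgeR (0 of 9), a level that 0.101% of all 17847 genes reached. At an unadjusted p under 0.05 there were 2 of 9, both lower, beside 14.6% of all genes (9.73% lower and 4.91% higher). The direction of this background turned with the scaling. Genes at that level numbered 1737 lower and 877 higher under TMM, 367 lower and 1686 higher with total counts, and 540 lower and 1914 higher with totals free of mitochondrially encoded genes, whereas the 2 members stayed lower with total counts. There were 831 lower and 630 higher without ac-WT mice 2 and 3. Tnnt1 ranked 98 and Tnni3 ranked 314 of 17847 genes by p. Tnni3 was also the single member, 1 of 9, with every ac-CYB5R3–KO heart below every ac-WT heart, a pattern that 1.04% of all genes showed and that was lost by a small margin when libraries were scaled to total counts. DESeq2 placed 2 of 9 members, again Tnni3 and Tnnt1, past an adjusted p of 0.05, which 2.53% of all genes reached with that tool. The median log2 fold change was −0.20 over the 9 members and −0.0074 over all genes, against 0.08 and 0.26 with total counts. In bulk tissue, fewer cells of a type and less RNA per cell cannot be told apart.

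**Figure D1:**
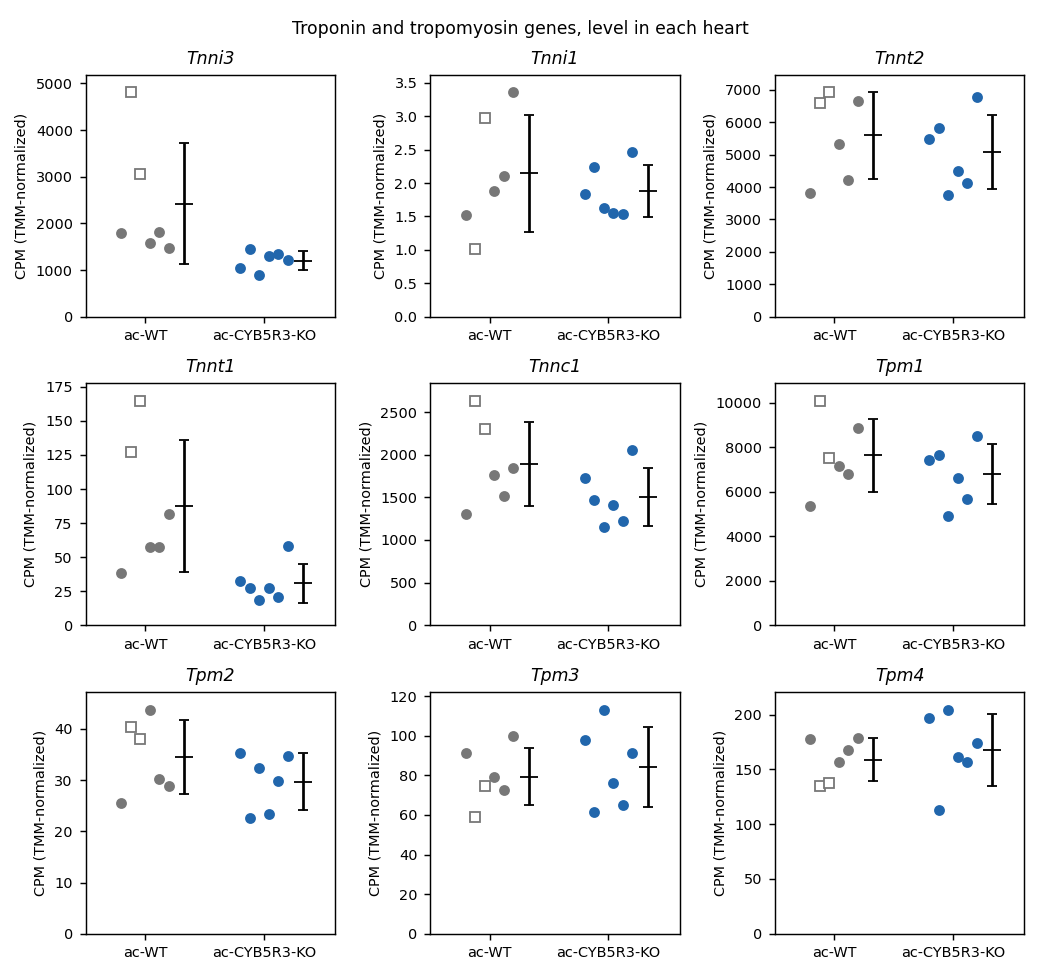
Each panel plots 1 gene in CPM on a linear axis from 0, with 1 point per heart for ac-WT (gray) and ac-CYB5R3-KO (blue), open squares for ac-WT mice 2 and 3, and the mean ± SD of the 6 hearts beside each group. The 6 ac-CYB5R3-KO hearts reach at most 1452 CPM for Tnni3 and all lie below the ac-WT hearts, which begin at 1482 CPM (the groups touch when scaled to total counts), whereas the groups overlap in the other 8 panels.

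Tnni3, the adult inhibitory subunit and the protein measured in blood as cardiac troponin I, ranged in ac-WT hearts from 1482 to 4805 CPM with a median of 1808. In ac-CYB5R3–KO hearts it ranged from 888 to 1452 CPM with a median of 1251. The groups did not overlap, but the margin between the lowest ac-WT heart and the highest ac-CYB5R3–KO heart was narrow, and the ac-WT spread came mostly from mouse 2 (4805 CPM) and mouse 3 (3063 CPM). The other 4 ac-WT hearts lay between 1482 and 1811 CPM. The means were 2422 ± 1300 and 1202 ± 207 CPM (SD, n = 6 each), a log2 fold change of −1.01 (SE 0.28) with an adjusted p of 0.184 in edgeR. An exact permutation test on CPM, two-sided, gave p = 0.00216, the smallest that 6 against 6 hearts allow. Once ac-WT mice 2 and 3 were left out, the log2 fold change was −0.46 (SE 0.15, edgeR adjusted p = 0.418), and without mouse 2 alone it was −0.68. With total counts in place of TMM it was −0.59, where the median of all genes was 0.26 and the groups met, with 1633 CPM in the lowest ac-WT and 1634 CPM in the highest ac-CYB5R3–KO heart. With 1 surrogate variable it was −0.40. Tnni3 was thus lower under each of these settings, by an amount that depended on the ac-WT hearts kept.

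Tnni1, the fetal isoform, was near the lower end of what these libraries could measure. Its counts were 29 to 177 in the ac-WT libraries and 79 to 130 in the ac-CYB5R3–KO libraries. In CPM it ranged from 1.01 to 3.36 with a median of 2.00 in ac-WT hearts, and from 1.54 to 2.46 with a median of 1.73 in ac-CYB5R3–KO hearts, so that the second range lay within the first. The log2 fold change was −0.20 (SE 0.26, edgeR adjusted p = 0.738), 0.03 with total counts and −0.23 without ac-WT mice 2 and 3. A rise of the fetal transcript was not detectable at this depth and spread.

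The balance of the troponin I isoforms lay almost wholly with the adult form in every heart. Per 1000 Tnni3 reads there were between 0.214 and 2.27 Tnni1 reads in ac-WT hearts and 1.16 to 2.04 in the hearts of ac-CYB5R3–KO mice. Read per kb of annotated exon, Tnni1 made up 0.125% ± 0.0754 of troponin I transcript in ac-WT and 0.179% ± 0.0400 in ac-CYB5R3–KO hearts (SD, n = 6 each). The mean log2 ratio of Tnni1 to Tnni3 was −10.10 in ac-WT and −9.32 in ac-CYB5R3–KO hearts, higher in the latter by 0.78 (SE 0.48), with p = 0.11 in an exact permutation test and 0.199 after adjustment over the 9 ratios compared. The 2 ends of the ac-WT range were mouse 2 with the lowest ratio and mouse 6 with the highest, and the choice of hearts decided the call. Without ac-WT mouse 6 the difference was 1.04 (exact p = 0.0108, adjusted p = 0.0244), and without mouse 2 it was 0.36 (exact p = 0.21, adjusted p = 0.378). Without mice 2 and 3 together it was 0.28 (exact p = 0.362, adjusted p = 0.543). The mean Tnni1 level of ac-CYB5R3–KO hearts was itself no higher than that of ac-WT hearts under TMM scaling.

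**Figure D2:**
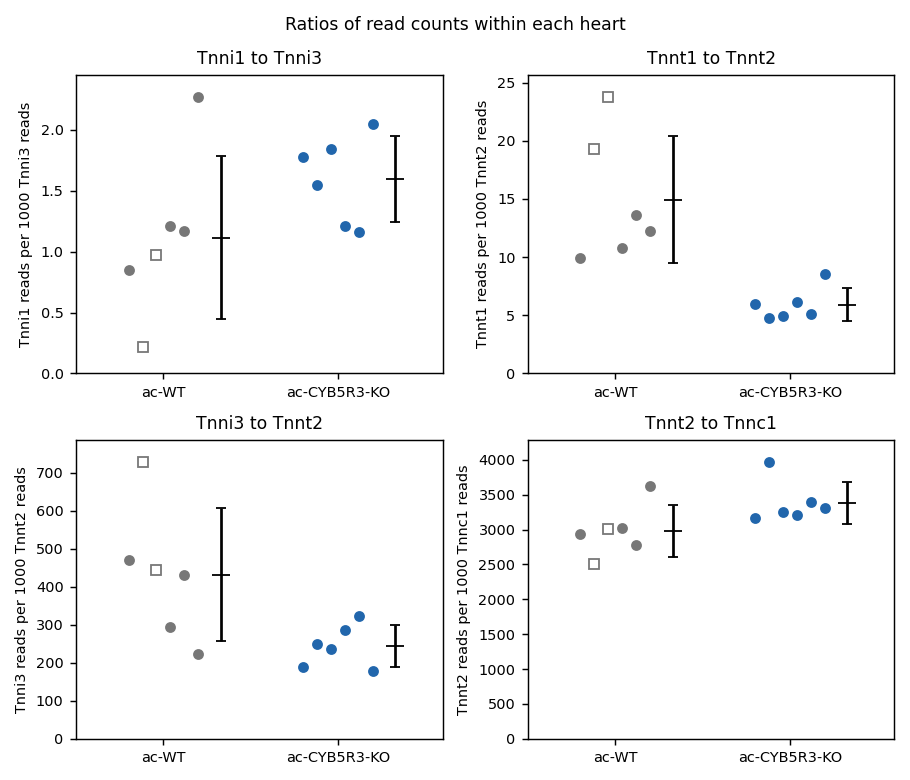
Each panel plots, for every heart, the reads of 1 gene per 1000 reads of another on a linear axis from 0, with ac-WT in gray (open squares for mice 2 and 3), ac-CYB5R3-KO in blue, and the mean ± SD of the 6 hearts beside each group. Tnnt1 reads per 1000 Tnnt2 reads lie between 4.74 and 8.55 in ac-CYB5R3-KO hearts and between 9.95 and 23.8 in ac-WT hearts, whereas the other 3 ratios overlap.

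Tnnt2, the cardiac troponin T, overlapped almost fully between the groups. It ranged from 3828 to 6920 CPM with a median of 5967 in ac-WT hearts, and the ac-CYB5R3–KO hearts spanned 3769 to 6786 CPM with a median of 4991. The log2 fold change was −0.14 (SE 0.21, edgeR adjusted p = 0.782). Its sign turned with the scaling, to 0.16 with total counts, and with the hearts kept, to 0.04 without ac-WT mice 2 and 3.

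Tnnt1, the slow skeletal troponin T, showed the largest difference of the 9. In ac-WT hearts it ranged from 38.1 to 165 CPM with a median of 69.5, and in ac-CYB5R3–KO hearts from 18.5 to 58.0 CPM with a median of 27.6. Of the ac-CYB5R3–KO hearts, 5 lay below every ac-WT heart, and that of mouse 6 (58.0 CPM) lay above 3 of the 6 ac-WT hearts. The means were 87.7 ± 48.6 and 30.9 ± 14.2 CPM (SD, n = 6 each), a log2 fold change of −1.51 (SE 0.36) with an adjusted p of 0.173 in edgeR. The exact permutation p was 0.00866. Mice 2 and 3 again gave the highest ac-WT levels, 127 and 165 CPM, and without both the log2 fold change was −0.91 (SE 0.29, edgeR adjusted p = 0.423). With 1 surrogate variable it was −1.01.

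Set against Tnnt2 in the same heart, Tnnt1 separated the groups fully. There were between 9.95 and 23.8 Tnnt1 reads per 1000 Tnnt2 reads in ac-WT hearts and 4.74 to 8.55 in the hearts of ac-CYB5R3–KO mice. The log2 ratio fell by 1.30 (SE 0.24), with an exact permutation p of 0.00216 and an adjusted p of 0.0195 over the 9 ratios, the only one of the 9 to pass. Without ac-WT mice 2 and 3 the difference was −1.002 (exact p = 0.00476, adjusted p = 0.0429). Comparing medians in place of means gave −1.23 (exact p = 0.013) with an adjusted p of 0.117. As a share of troponin T transcript per kb of exon, Tnnt1 went from 0.750% ± 0.271 in ac-WT to 0.297% ± 0.0713 in ac-CYB5R3–KO hearts (SD, n = 6 each). Tnnt2 made up the remaining 99.3% and 99.7%.

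Tnnc1, the calcium sensor of the complex, ranged from 1304 to 2630 CPM with a median of 1802 in ac-WT hearts, and the ac-CYB5R3–KO hearts spanned 1157 to 2055 CPM with a median of 1437. The ranges overlapped, with 2 ac-CYB5R3–KO hearts below all ac-WT hearts, and the log2 fold change was −0.33 (SE 0.20, edgeR adjusted p = 0.461). It was −0.01 with total counts and −0.08 without ac-WT mice 2 and 3. A second protein-coding entry named Tnnc1 overlaps this one on the same strand in the annotation and has no row in the count table. The span and exon length given for Tnnc1 are those of the entry with counts. Nisch overlaps the gene on the opposite strand and stood at 124 ± 30.7 and 117 ± 16.5 CPM (log2 fold change −0.09), and whether the counting used strand is not given in the sources used here.

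The ratios between the 3 subunits of the complex differed between the groups without passing adjustment. The mean log2 ratio of Tnni3 to Tnnt2 was lower in ac-CYB5R3–KO hearts, with a difference of −0.76 (SE 0.28, exact permutation p = 0.0238, adjusted p = 0.107). Tnni3 reads per 1000 Tnnt2 reads lay between 222 and 728 in ac-WT hearts and 178 to 324 in the hearts of ac-CYB5R3–KO mice. For Tnni3 to Tnnc1 the difference was −0.57 (SE 0.24, exact p = 0.0411, adjusted p = 0.123), and for Tnnt2 to Tnnc1 it was 0.19 (SE 0.086, exact p = 0.0563, adjusted p = 0.127). These ratios do not depend on how the libraries are scaled. They did depend on ac-WT mouse 6, without which Tnni3 to Tnnt2 differed by −0.93 (exact p = 0.00649, adjusted p = 0.0195), Tnni3 to Tnnc1 by −0.68 (exact p = 0.0195, adjusted p = 0.0351) and Tnnt2 to Tnnc1 by 0.25 (exact p = 0.00216, adjusted p = 0.00974). Without ac-WT mice 2 and 3 the 3 differences were −0.51, −0.38 and 0.13, each with an adjusted p of 0.418.

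The neighbours of these genes were read beside them. Lad1, which encodes ladinin and lies between Tnni1 and Tnnt2, averaged 6.87 and 6.82 CPM (log2 fold change −0.01, edgeR adjusted p = 0.987). A gene named 6030429G01Rik overlaps Tnni3 on the same strand and was at 3.12 ± 2.18 CPM in ac-WT and 1.74 ± 0.298 CPM in ac-CYB5R3–KO hearts (log2 fold change −0.83, edgeR adjusted p = 0.325). Its reads and those of Tnni3 could be exchanged in counting. It had 1318 counts over all hearts against 971215 for Tnni3, and how many reads were exchanged was not tested.

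The fast skeletal troponins were scarce. Tnni2 was at 3.48 ± 1.31 CPM in ac-WT and 2.28 ± 0.912 CPM in ac-CYB5R3–KO hearts (log2 fold change −0.62, edgeR adjusted p = 0.337). Tnnt3 was at 14.7 ± 7.59 and 21.1 ± 9.56 CPM (log2 fold change 0.52, edgeR adjusted p = 0.508), and Tnnc2 had 1 count in all 12 libraries together. No fast isoform was therefore near the level of its cardiac counterpart.

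Tpm1, the main tropomyosin, was the most abundant member in reads. It ranged from 5369 to 10085 CPM with a median of 7343 in ac-WT hearts, and the ac-CYB5R3–KO hearts spanned 4908 to 8513 CPM with a median of 7031. The log2 fold change was −0.17 (SE 0.20, edgeR adjusted p = 0.718), 0.12 with total counts and −0.04 without ac-WT mice 2 and 3. Against Tnnt2, its partner on the filament, Tpm1 differed by −0.03 on the log2 scale (SE 0.087, exact permutation p = 0.74), the narrowest spread of the 9 ratios after that of Tnnt2 to Tnnc1. There were 1089 to 1619 Tpm1 reads per 1000 Tnnt2 reads in ac-WT hearts, a range that held the 1255 to 1473 of the ac-CYB5R3–KO hearts.

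Tpm2, the beta form, ranged from 25.5 to 43.8 CPM in ac-WT hearts, against 22.6 to 35.3 CPM in ac-CYB5R3–KO hearts (log2 fold change −0.21, SE 0.16, edgeR adjusted p = 0.541). Tpm3 ranged from 58.8 to 99.6 and from 61.3 to 113 CPM (log2 fold change 0.08, SE 0.17, edgeR adjusted p = 0.836), and Tpm4 from 135 to 179 and from 113 to 205 CPM (log2 fold change 0.08, SE 0.14, edgeR adjusted p = 0.817). The groups overlapped for all 3, and the sign of each turned under at least 1 other setting. Their log2 fold changes were −0.10, −0.01 and −0.0085 when ac-WT mice 2 and 3 were left out. Reads of Tpm3 may be shared with the similar gene Tpm3-rs7, which was listed at 34.8 ± 7.75 and 37.6 ± 9.05 CPM, so its level is uncertain. Relative to Tpm1, the log2 ratios of Tpm2, Tpm3 and Tpm4 differed by −0.05, 0.23 and 0.22, with exact permutation p-values of 0.833, 0.442 and 0.42. Leaving out 1 heart at a time moved the Tpm3 difference between 0.051 and 0.37 and the Tpm4 difference between 0.073 and 0.37, and without ac-WT mice 2 and 3 they were 0.0032 and 0.0076. The shares of tropomyosin transcript per kb of exon were 92.1% ± 2.01 and 91.0% ± 2.81 for Tpm1, 5.90% ± 1.67 and 6.87% ± 2.16 for Tpm4, 1.07% ± 0.327 and 1.25% ± 0.452 for Tpm3, and 0.943% ± 0.195 and 0.911% ± 0.235 for Tpm2, with ac-WT hearts first and ac-CYB5R3–KO hearts second (SD, n = 6 each). No move from the main to a minor tropomyosin was detectable against this spread.

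**Figure D3:**
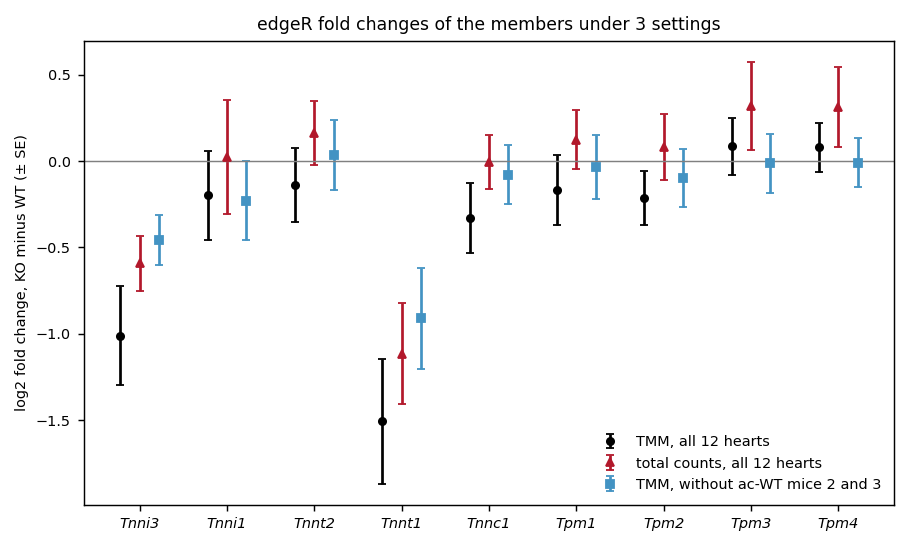
The log2 fold change (ac-CYB5R3-KO minus ac-WT, ± SE, edgeR) of each of the 9 genes is plotted for TMM scaling with all 12 hearts (black circles), total counts with all 12 hearts (red triangles) and TMM scaling without ac-WT mice 2 and 3 (blue squares). Tnni3 (−1.01, −0.59 and −0.46) and Tnnt1 (−1.51, −1.12 and −0.91) lie below 0 by more than their SE at each setting, whereas Tnnt2 moves from −0.14 to 0.16 and 0.04.

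Levels can be compared between genes only per length of transcript, and were set per kb of annotated exon. In ac-WT hearts Tnnt2 stood first at 5057 ± 1216 CPM per kb, then Tnnc1 at 1801 ± 471, Tnni3 at 1256 ± 675 and Tpm1 at 1177 ± 254 (SD, n = 6). Tnni3 and Tpm1 could not be ordered in ac-WT, where Tnni3 was the higher in 3 of 6 hearts, whereas in ac-CYB5R3–KO hearts Tpm1 was the higher in all 6. Well below these came Tpm4 at 72.1 ± 8.84 CPM per kb, Tnnt1 at 40.1 ± 22.3, Tpm3 at 13.0 ± 2.38 and Tpm2 at 11.8 ± 2.49, and Tnni1 was last at 1.26 ± 0.516. Tnnt1 was above Tpm3 in 6 of 6 ac-WT hearts and in 3 of 6 ac-CYB5R3–KO hearts, and Tpm3 was above Tpm2 in 3 of 6 ac-WT hearts. The order of the other neighbours held in at least 5 of 6 hearts of each group.

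**Figure D4:**
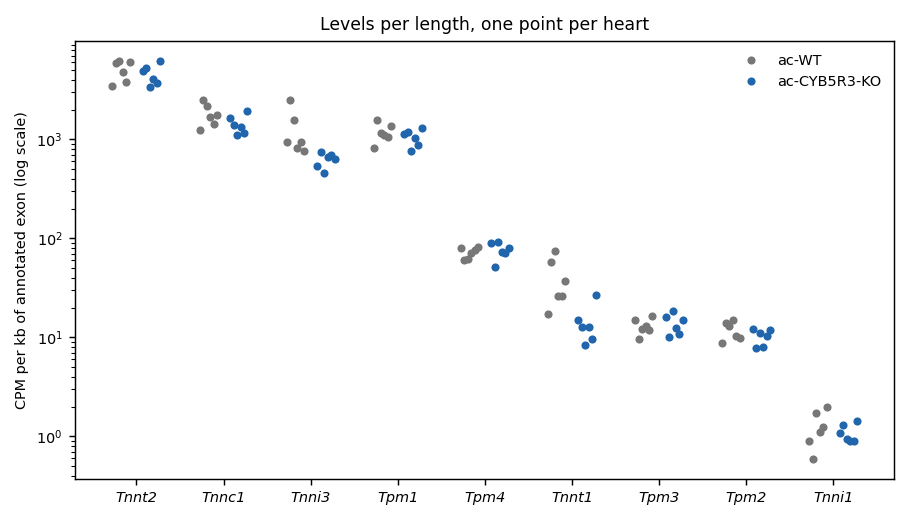
Levels of the 9 genes are plotted in CPM per kb of annotated exon on a log axis, 1 point per heart, in order of the ac-WT mean, with ac-WT in gray and ac-CYB5R3-KO in blue. Tnnt2 (ac-WT mean 5057), Tnnc1 (1801), Tnni3 (1256) and Tpm1 (1177) lie well above the other 5 genes, which range down to Tnni1 at 1.26.

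The partners of troponin and tropomyosin were then described by lists written for this purpose. Of 16 actin filament genes tested, 2 were lower and 2 higher at an unadjusted p under 0.05, and the median log2 fold change was 0.05. There were 0 lower and 1 higher once ac-WT mice 2 and 3 were left out (median 0.13), and 1 lower and 3 higher with total counts (median 0.29). Cardiac actin (Actc1) was at 5392 ± 1116 CPM in ac-WT and 5697 ± 1318 CPM in ac-CYB5R3–KO hearts (log2 fold change 0.08), a difference smaller than the spread between mice. Xirp2, a Xin repeat protein that binds actin, had the lowest p of the list, at 282 ± 106 and 670 ± 148 CPM (log2 fold change 1.25, SE 0.23, edgeR adjusted p = 0.0715). Tropomodulins cap the pointed end of the filament. Tmod1, the cardiac form, had a log2 fold change of 0.48 (edgeR adjusted p = 0.306) and Tmod4, the skeletal form, of −1.29 (adjusted p = 0.218). Nebulin (Neb), the thin filament ruler of skeletal muscle, was at 1.27 and 0.785 CPM (log2 fold change −0.69, adjusted p = 0.317).

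Of 12 thick filament genes, 5 were lower and 1 higher at an unadjusted p under 0.05, with a median log2 fold change of −0.40. The ventricular light chains Myl2 (log2 fold change −1.22, edgeR adjusted p = 0.184) and Myl3 (−0.87, adjusted p = 0.211) were lower, as was Myh7b, a slow-type myosin (−1.69, adjusted p = 0.216). Without ac-WT mice 2 and 3 the median of the list was −0.06 and 1 gene was lower and 1 higher. With total counts it was −0.04, with 4 lower and 1 higher, where the median of all genes was 0.26.

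Genes that accompany the fetal troponin I in the fetal or stressed ventricle showed no common direction. Of 8 tested, 1 was lower and 1 higher at an unadjusted p under 0.05, and the median log2 fold change was 0.11 (0 lower, 1 higher and 0.16 without ac-WT mice 2 and 3). With total counts 0 were lower and 1 higher (median 0.36). Myl1, an alkali light chain, was at 162 ± 75.4 CPM in ac-WT and 304 ± 78.2 CPM in ac-CYB5R3–KO hearts (log2 fold change 0.91, edgeR adjusted p = 0.203), and Myl7 was lower (−1.18, adjusted p = 0.234) at 1.25 and 0.547 CPM. Skeletal actin (Acta1, 0.12, adjusted p = 0.795) and Myl4 (−0.11, adjusted p = 0.802) did not differ beyond their spread.

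Enzymes that phosphorylate or dephosphorylate troponin, splicing factors that act on Tnnt2 and other sarcomere transcripts, and regulators of cardiac isoform choice had list medians near 0, although single members differed more widely. Of 16 kinase and phosphatase genes 1 was lower at an unadjusted p under 0.05, the protein kinase C gene Prkce (log2 fold change −0.37, edgeR adjusted p = 0.294), and the next were Prkar1a (0.30, adjusted p = 0.393), Prkacb (0.20, adjusted p = 0.497) and Tnni3k, a kinase that binds troponin I (−0.26, adjusted p = 0.504). Of 13 splicing factors 1 was lower, Rbfox1 (−1.01, adjusted p = 0.191), followed by Rbm20 (−0.66, adjusted p = 0.355), Rbm24 (−0.37, adjusted p = 0.39) and Celf2 (0.08, adjusted p = 0.644). Of 17 thyroid hormone and cardiac regulators, Tead1, which binds MCAT elements, was higher (0.46, adjusted p = 0.193) and Myocd, a partner of SRF at CArG boxes, was lower (−0.52, adjusted p = 0.286). Thyroid hormone is among the signals tied to the switch from Tnni1 to Tnni3, and its activating enzyme Dio2 (0.91, adjusted p = 0.351) and receptor Thra (−0.26, adjusted p = 0.374) lay on either side of 0. None of the genes in these lists had an adjusted p under 0.05, and the list medians were 0.02, 0.03 and −0.08. With total counts, where the median of all genes was 0.26, they were 0.28, 0.27 and 0.23. Leaving out ac-WT mice 2 and 3 gave 0.03, 0.02 and 0.09, with 0 genes lower and 1 regulator higher at an unadjusted p under 0.05 in edgeR.

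**Figure D5:**
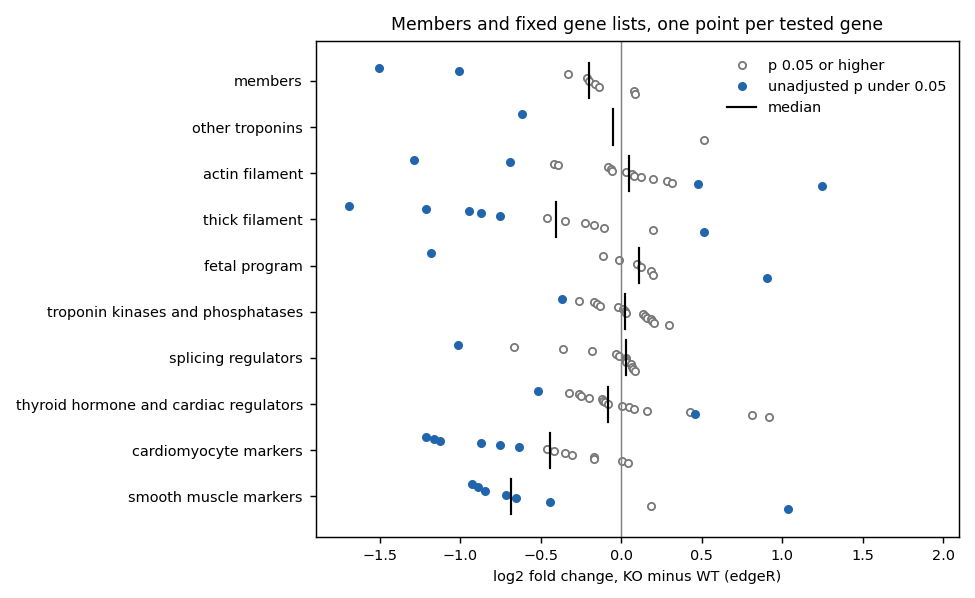
The log2 fold change (ac-CYB5R3-KO minus ac-WT, edgeR) of each tested gene is plotted by list, with filled blue points for an unadjusted p under 0.05, open gray points for the rest, and a black bar at the median of each list. The medians of the actin filament (0.05), fetal program (0.11), kinase (0.02) and splicing (0.03) lists lie close to 0, whereas those of the thick filament (−0.40), cardiomyocyte marker (−0.44) and smooth muscle marker (−0.69) lists lie below it. The thick filament and cardiomyocyte marker lists share genes.

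Markers of other cell types and of cardiomyocytes as a whole were read beside the members. Of 14 cardiomyocyte markers outside the 9 genes, 6 were lower and 0 higher at an unadjusted p under 0.05, with a median log2 fold change of −0.44. Their summed level ran from 17771 to 47387 CPM in ac-WT hearts, against 12725 to 21763 CPM in ac-CYB5R3–KO hearts. Without ac-WT mice 2 and 3 the median was −0.15 and 2 were lower, and with total counts it was −0.09 and 4 were lower. The cardiomyocyte list shares Myh6, Ttn, Myl2, Myl3 and Mybpc3 with the thick filament list and Actn2 with the actin filament list. Its counts are therefore not separate from theirs. Counted the same way, smooth muscle markers (6 of 8 lower, 1 higher, median −0.69) summed to between 169 and 329 CPM in ac-WT and 144 to 193 CPM in ac-CYB5R3–KO hearts. Leaving out ac-WT mice 2 and 3 left 2 lower and 0 higher (median −0.21), and with total counts 2 were lower and 1 higher (median −0.30). Red blood cell markers (3 of 5 higher, median 1.61), led by Hba-a1 and Hba-a2, summed to between 222 and 4487 CPM and between 1323 and 12229 CPM. Cartilage and airway markers (3 of 4 tested higher, median 1.49), led by Comp, summed to between 4.19 and 35.8 CPM and between 37.9 and 97.0 CPM. The 4 tested were the cartilage genes Col2a1, Comp, Col9a3 and Acan. The airway genes Scgb1a1 and Sftpc had 3 and 7 counts in all 12 libraries together and were not tested. All 5 red blood cell markers (median 2.38) and 3 of the 4 tested cartilage markers (median 1.34) were higher without ac-WT mice 2 and 3. The fibroblast, endothelial and leukocyte lists had 0 genes at an unadjusted p under 0.05 in edgeR, with medians of −0.03, −0.07 and −0.02. Once they were left out, 2 of 7 fibroblast markers (median −0.25) and 2 of 7 leukocyte markers (median −0.15) were lower, and the endothelial list still had 0 (median 0.05). Of 4 atrial genes tested 1, Myl7, was lower, and without these mice 0 were. Of 12 skeletal muscle markers 6 were tested, 2 lower and 2 higher, with a median of −0.25 (1 lower and 1 higher without ac-WT mice 2 and 3, median −0.11). The fast fibre genes Myh1, Myh2 and Atp2a1 had 31, 27 and 56 counts in all 12 libraries together. Other genes of the list ranged from 21 (Mybpc1) to 318277 (Eno3), with Myh4 at 454, Mylpf at 456 and Mybpc2 at 10354. The part of the other differences in the levels of Tnni3 and Tnnt1 was not tested.

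The genes whose profile over the 12 hearts was most like that of Tnni3 were, by the root mean square difference of centred log2(CPM + 1) values, 1110001J03Rik (0.110), Macrod1 (0.120), Eci1 (0.123), Eno3 (0.130) and Mtfp1 (0.134), out of 17846 compared. The same measure for Tnni3 against its own mean was 0.640, so these genes followed it closely. Eci1 encodes an enzyme of fatty acid oxidation, Eno3 the muscle enolase and Mtfp1 a mitochondrial fission protein. Each was lower in ac-CYB5R3–KO hearts, with log2 fold changes from −1.07 to −0.84. This follows from their choice by likeness over all 12 hearts of both groups, and is not a separate result. For Tnni1 the nearest were Serhl (0.171), Cstf3 (0.175), Gm12263 (0.175), Aldh1l2 (0.175) and ENSMUSG00000115852 (0.177), against 0.296 for Tnni1 itself, a much looser likeness. The values compared come from the same 12 libraries, with the same depth and RNA composition.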

How the data were processed

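RNA of 12 mouse hearts, 6 ac-WT and 6 ac-CYB5R3–KO, was sequenced by the authors, who deposited raw counts, a whole number of reads for each of 53700 Ensembl genes in each library, neither normalized nor filtered. The submitters' processing notes name STAR, featureCounts and GRCm39, whereas the study's methods name mm9, Cufflinks and FPKM values. Versions, annotation and strand setting are not given in the sources used here, so the build of the counts is uncertain, and reads of overlapping genes could be divided either way. Library kits were stranded, and no molecular identifiers were used.

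Symbols were found for 31027 identifiers (57.8%), and 159 of 161 listed genes matched. Gene coordinates and exon lengths came from GENCODE on NCBIM37 (mm9), promoter windows from RefSeq on GRCm38.p6, in which all 9 members had an entry (12 in all). Low genes were removed by filterByExpr (minimum count 10), TMM set the library sizes, and edgeR's quasi-likelihood test (version 4.0.16, R 4.3.3) was applied two-sided with Benjamini-Hochberg adjustment over 17847 genes. "Rose" and "fell" are kept for adjusted p-values under 0.05. Ratios within a heart used log2 counts with 0.5 added, and single values an exact permutation test over all 924 splits of 12 hearts, two-sided, with adjustment over the 9 ratios. Totals were 43393183 to 53754284 counts, so the spread between mice, and for Tnni1 also counting error, limits precision.

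Genes named were the 9 members, genes between or overlapping them, Cyb5r3, for each list up to 4 genes with the lowest p (for marker lists those at 0 and the most abundant), and for Tnni3 and Tnni1 the 5 genes nearest in profile. Actc1, the fast fibre genes and the cell markers beyond that rule were named after their values were seen. A gene that this rule names is not reported here. The members and lists were chosen with earlier results of these data known. Other settings tried were 2 other tools, DESeq2 1.42.0 and voom of limma 3.58.1, totals with and without mitochondrially encoded genes as library sizes, DESeq2 size factors in edgeR, no filter, a floor of 10 counts per library, a replicate block, 1 surrogate variable (sva 3.50.0), leaving out each heart, and leaving out ac-WT mice 2 and 3. For ratios a pseudocount of 5 and medians were also tried. The tests were checked on simulated data, calling at an adjusted p under 0.05. Of 100 planted changes of 1 on the log2 scale, edgeR recovered 63, DESeq2 74 and limma-voom 62. Of 100 changes of 2 they recovered 91, 93 and 91. False calls numbered 7 with edgeR, 35 with DESeq2 and 7 with limma-voom.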

Additional observations from a re-analysis of the deposited data

Results flagged for a closer look

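Among 38 sets of 6 hearts examined for a heart that stands off from the rest, by the ratio of its gap to the whole range, 2 held one, and chance flags about 1 in 20 such sets. Tnnt1 in the heart of ac-CYB5R3–KO mouse 6 was at 58.0 CPM, whereas the other 5 hearts of the group lay between 18.5 and 32.6 CPM. Without that heart the log2 fold change of Tnnt1 was −1.78 (edgeR adjusted p = 0.117). The log2 ratio of Tnnt2 to Tnnc1 in ac-CYB5R3–KO mouse 2 was 1.99, and lay between 1.66 and 1.76 in the other 5 hearts of the group. Without that heart the difference between the groups was 0.14 (exact permutation p = 0.115, adjusted p = 0.258).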

How the results depend on the processing

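Tnni3 was lower in all 22 alternatives to the main test, from −1.12 to −0.40 on the log2 scale, with an unadjusted p under 0.05 in 21. Tnnt1 was lower in all 22, from −1.78 to −0.91. DESeq2 gave both an adjusted p under 0.05 (Tnni3 −1.02, adjusted p = 0.027, Tnnt1 −1.51, adjusted p = 0.00622), so that 2 members passed, against 0 in edgeR. With 1 surrogate variable 1 member had an unadjusted p under 0.05, against 2. Genes past the adjusted threshold among all genes numbered 18 in edgeR, 451 in DESeq2 and 2 in limma-voom, and the cause was not tested.

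With total counts the sign turned for Tnni1 (0.0253), Tnnt2 (0.160), Tpm1 (0.124) and Tpm2 (0.0837), and with totals free of mitochondrially encoded genes for Tnnt2 (0.106), Tpm1 (0.0746) and Tpm2 (0.0305), where the median of all genes was 0.26 and 0.21. Without ac-WT mice 2 and 3 it turned for Tnnt2 (0.0357), Tpm3 (−0.0136) and Tpm4 (−0.00847), with 1 surrogate variable for Tpm3 (−0.0403) and Tpm4 (−0.0357), and without ac-CYB5R3–KO mouse 3 for Tpm3 (−0.0127, the range on leaving out a heart being −0.0127 to 0.162). None of these had an unadjusted p under 0.05. The median of the kinase list was 0.279 with total counts.

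Cyb5r3 kept its direction, but its adjusted p was above 0.05 with limma-voom (−1.17), total counts (−1.03), totals free of mitochondrially encoded genes (−1.06) and the replicate block (−1.18). It was above 0.05 too without ac-WT mouse 3 or 5 or ac-CYB5R3–KO mouse 1, 2, 3, 4 or 5, the range on leaving out a heart being −1.31 to −1.08.

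Leaving out a heart moved the Tnni1 to Tnni3 difference between 0.36 and 1.04, and Tpm1 to Tnnt2 between −0.0987 and 0.0158 (turned without ac-WT mouse 5). Tpm2 to Tpm1 ran from −0.166 to 0.0669, and turned to 0.0413 without ac-WT mouse 4, 0.0669 without ac-CYB5R3–KO mouse 2 and 0.0150 without ac-CYB5R3–KO mouse 4. Tnnt1 to Tnnt2 kept its size with medians (−1.23, adjusted p = 0.117).

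Same-numbered mice are different animals. Their deviations correlated at 0.133 on average (6 pairs, −0.160 to 0.360), and those of the 30 remaining pairs at −0.0255 (−0.365 to 0.329). The ranges overlapped, and 6 pairs are too few to tell whether the numbers pair the hearts. With the replicate block Tnni3 was at −0.88 and Tnnt1 at −1.41, and 2 genes of all passed the adjusted threshold. The Tnnt1 to Tnnt2 difference was −1.30 with an exact sign-flip p of 0.0312, the smallest 6 pairs allow, and an adjusted p of 0.141.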
